A study of Mus musculus with 8 samples.

Results

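The matrix proteoglycan genes of fibroblastic reticular cells (FRC) were followed by RNA-seq across 4 culture conditions. The genes were taken by symbol from the deposited count table: Dcn, Bgn, Aspn, Lum, Fmod, Prelp, Omd and Ogn, which encode small leucine-rich proteoglycans (SLRP), Vcan, which encodes versican, and Hspg2, which encodes perlecan. All 10 were found among the 55367 genes of the table, and all 10 passed the filter of at least 10 counts in at least 3 libraries, which left 12137 genes to test. Every library came from 1 FRC line made from lymph nodes of p53ER/ER C57BL/6 mice, so all conditions share that allele and background. FRCs were kept for 4 days in RPMI conditioned by B16.F10 melanoma cells (tumor-conditioned medium, TCM), in RPMI conditioned by FRCs (control-conditioned medium, CCM), with 15 mmol/L lactic acid (LA), or with the same volume of water (vehicle), with 2 libraries per condition and 8 in all. LA and water were given in RPMI that no cells had conditioned. Comparisons of TCM or CCM with LA or vehicle therefore include any effect of conditioning itself. The comparison of TCM with CCM asks what tumor-derived soluble factors change in FRCs. That of LA with vehicle asks which of these changes lactic acid, a tumor metabolite that brings lactate and protons together, also makes.

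Proteoglycans are core proteins that carry sulfated glycosaminoglycan chains. SLRP core proteins are built of leucine-rich repeats, bind collagen fibrils and govern how fibrils assemble, and several of them also bind TGFβ. Versican is a large chondroitin sulfate proteoglycan that binds hyaluronan and forms a loose, hydrated matrix, whereas perlecan is the heparan sulfate proteoglycan of basement membranes. In lymph nodes FRCs make and wrap the reticular fibres, which have a core of fibrillar collagen under a layer of basement membrane components and form the conduits that carry lymph-borne molecules.

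Of the 10 genes, 7 lie in 3 tight SLRP clusters (GRCm38, GENCODE M21). On chromosome 13 Aspn (49544443 to 49567565), Omd (49582462 to 49592822) and Ogn (49608046 to 49624501) follow each other on the plus strand, with 14.896 kb between Aspn and Omd and 15.223 kb between Omd and Ogn, and the related gene Ecm2 lies 11.653 kb before Aspn. On chromosome 10 Dcn (97479609 to 97518143) and Lum (97565128 to 97572703) are 46.984 kb apart on the plus strand and are followed by Kera and Epyc. On chromosome 1 Prelp (133910304 to 133921414, minus strand) and Fmod (134037254 to 134048277, plus strand) are 115.839 kb apart. The others lie outside these clusters, Vcan on chromosome 13 (89655312 to 89742509, minus strand), Bgn on chromosome X (73483602 to 73495933) and Hspg2 on chromosome 4 (137468769 to 137570630).

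Promoter sequences of RefSeq (GRCm38.p6) were matched by symbol for 8 of the 10 genes, all but Dcn and Lum. Those of Aspn, Ogn and Vcan are shown because Aspn and Ogn share a cluster yet went in opposite directions with TCM, and because Aspn and Vcan went in the same direction. Each line gives the 250 bases before the RefSeq start, 5′ to 3′ on the strand of the gene. Capitals mark matches, on either strand, to any of several short motifs. The first was TATAAA, where the TATA-binding protein sits. The next was CCAAT, bound by the factor NF-Y, and then GGGCGG, bound by the factor Sp1. The core of TEAD sites, GGAATG, was searched as well. The site of AP-1 factors, TGANTCA, was the last motif searched.
Aspn, chr13:49544193-49544442, plus strand: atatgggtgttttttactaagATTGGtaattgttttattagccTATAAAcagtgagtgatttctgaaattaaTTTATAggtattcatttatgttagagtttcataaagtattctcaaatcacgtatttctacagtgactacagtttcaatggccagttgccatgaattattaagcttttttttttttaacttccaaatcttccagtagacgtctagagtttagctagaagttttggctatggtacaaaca
Ogn, chr13:49607765-49608014, plus strand: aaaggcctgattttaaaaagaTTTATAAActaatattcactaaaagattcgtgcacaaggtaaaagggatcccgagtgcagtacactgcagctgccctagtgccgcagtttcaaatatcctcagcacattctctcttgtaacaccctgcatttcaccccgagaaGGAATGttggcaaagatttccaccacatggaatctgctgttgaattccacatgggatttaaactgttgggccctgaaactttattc
Vcan, chr13:89742513-89742762, minus strand: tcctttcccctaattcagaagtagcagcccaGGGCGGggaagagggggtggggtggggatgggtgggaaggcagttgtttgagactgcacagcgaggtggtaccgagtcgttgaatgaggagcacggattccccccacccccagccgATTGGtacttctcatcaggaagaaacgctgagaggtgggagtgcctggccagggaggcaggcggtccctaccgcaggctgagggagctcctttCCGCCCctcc
The windows of the cluster genes Aspn and Ogn held 30% and 42% G and C, that of Vcan 62.4%. Both held TATAAA, at 207 and 178 bases before the start of Aspn on opposite strands and as an overlapping pair of matches at 229 and 227 bases before that of Ogn. TATAAA was found in 2 of the 8 member windows and in 12.37% of the 32851 promoters of the same length, CCAAT in 3 members and 33.85%, GGGCGG in 3 members and 32.74%, GGAATG in 1 member, Ogn, and 12.64%, and TGANTCA in 0 members and 6.749%. These are matches of letters and no more.

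Counts per library ranged from 8232889 to 14107964, and 3 counts, the floor used here, equaled 0.211 to 0.354 CPM (counts scaled to library size, with TMM factors). The FRC markers summed to 831 to 980 CPM in the 8 libraries. In each library 6 to 10 of these 12 markers were over the floor, and 6 of the 12 were tested. For TCM against CCM 2 of the 6 were called, 1 higher and 1 lower (33.3% against 19.1% of all genes). Yet Ccl21a was at 0 in all libraries and Ccl19 reached at most 1 count. The chemokines by which lymph node FRCs are often defined were thus absent or nearly so. All 6 leukocyte markers were at 0 everywhere. Endothelial markers summed to 39.04 to 68.1 CPM and epithelial markers to 0.631 to 4.62 CPM, with Tek (−1.84) and Cdh1 (−1.80) called lower with TCM than with CCM. Melanoma markers summed to 2.63 and 2.29 CPM with TCM against 1.81 to 3.66 CPM in the other libraries, with Tyr at 0. Of these 7 markers 2 were at 0 in each TCM library and 4 or 5 in each of the others, and Tyrp1, a melanosome enzyme, was at 0.631 and 0.327 CPM with TCM and at 0 elsewhere. Of the cartilage, bone and tendon markers, Acan, Bglap and Ibsp were at 0, yet Col2a1 (type II collagen) was called higher with TCM than with CCM (log2 FC 1.24) and with LA than with vehicle (1.59). Sox9, a transcription factor of cartilage, was called lower with TCM than with CCM (−0.58). The list summed to 496 and 696 CPM with LA, 303 and 328 CPM with TCM, 244 and 327 CPM with vehicle and 239.5 and 239.04 CPM with CCM. The TCM libraries stood apart from each other. Their chi-square per degree of freedom was 19.8 against 3.28 to 7.32 in the other conditions, and the log2 ratio of replicate 2 to replicate 1 had a median of −0.35 over genes with at most 2 kb of exon and 0.30 over those with more than 10 kb. The part of these differences in the results below was not tested.

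Among the 10 genes Ogn, Fmod and Hspg2 had the highest levels per kb. Per kb of exon, averaged over the 8 libraries, the level was 162 CPM/kb for Ogn (osteoglycin), 127 for Fmod (fibromodulin), 63.2 for Hspg2, 41.5 for Prelp, 25.8 for Dcn (decorin), 7.74 for Bgn (biglycan), 7.40 for Vcan, 2.97 for Aspn (asporin), 2.65 for Lum (lumican) and 0.677 CPM/kb for Omd (osteomodulin). Ranges over libraries separated 3 steps of this order, that from Fmod to Hspg2 (lowest Fmod 105, highest Hspg2 103 CPM/kb), that from Dcn to Bgn (15.9 against 9.87 CPM/kb) and that from Lum to Omd (1.16 against 1.07 CPM/kb). All other neighbours in the order overlapped. Together the 10 genes took 0.190% to 0.261% of the counts. The highest library was above the lowest by 1.55-fold (Fmod) to 6.10-fold (Aspn), a range that includes the spread between replicates.

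**Figure D1:**
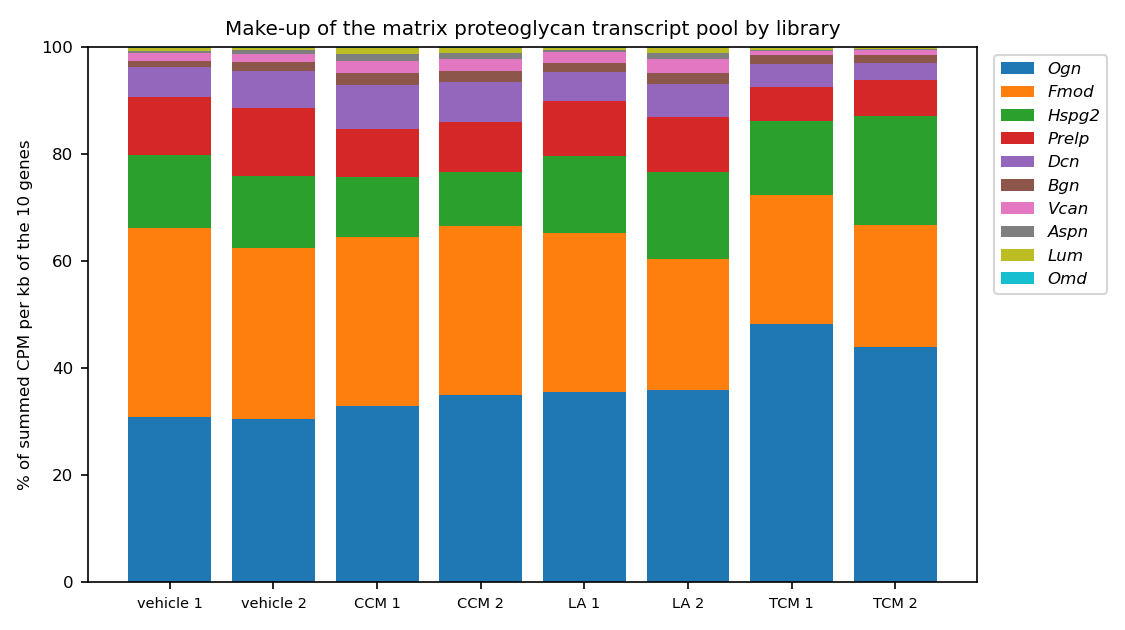
Each bar is 1 library and stacks the 10 genes as % of their summed CPM per kb of exon (vertical axis, 0 to 100%). Ogn made up 30.6% to 36.0% of the pool in the 6 vehicle, CCM and LA libraries and 48.2% and 44.0% in the TCM libraries, while Fmod was highest in the vehicle libraries, at 35.3% and 31.9%.

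TCM reshaped the pool in both directions. Compared with CCM, 6 of the 10 genes passed the test (edgeR quasi-likelihood test, adjusted P under 0.05 and log2 FC beyond 0.39) and 4 did not. Ogn and Hspg2 rose, and Aspn, Lum, Vcan and Dcn fell. Over all genes tested 19.1% were called in this comparison, 8.83% higher and 10.2% lower. The median log2 FC of the 10 genes was −0.28 and that of all genes 0.00. The CPM ranges of the conditions did not overlap for 9 of the 10 genes, against 58.3% of all genes. In bulk RNA, fewer cells that express a gene and less RNA per cell cannot be told apart. DESeq2 also called 6. Without TCM replicate 2 the calls of Dcn, Lum and Aspn were lost, while Prelp gained one. Aspn and Vcan lost theirs without TCM replicate 1, and Hspg2 without CCM replicate 2. The values are given with each gene below.

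**Figure D2:**
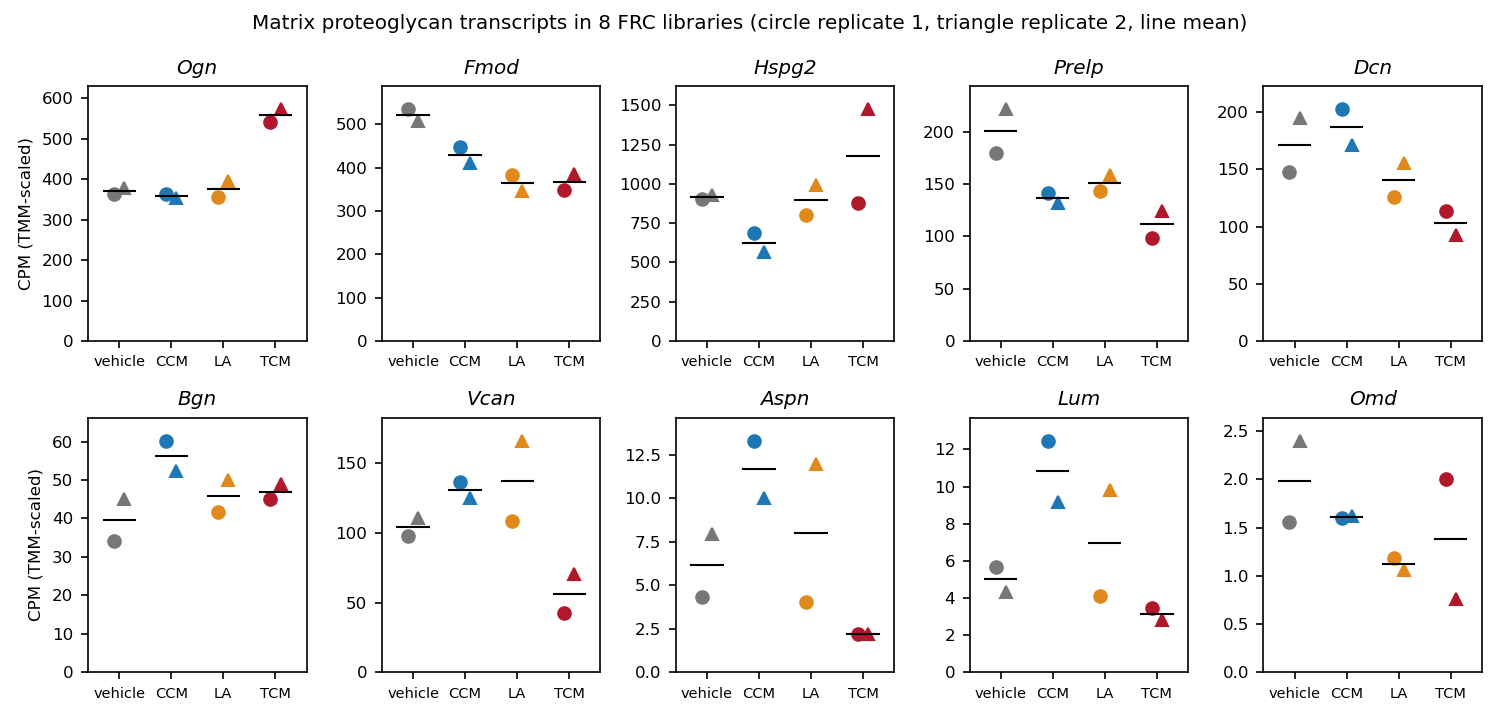
Each panel is 1 gene, in the order of its level per kb. The vertical axis is CPM from 0, the horizontal axis is the condition, and the circle and triangle are replicates 1 and 2 with their mean as a line. Ogn in the TCM libraries (543 and 573 CPM) lies above all other libraries, and Aspn (2.21 and 2.18 CPM) and Vcan (42.3 and 70.4 CPM) lie below them.

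Dcn, Bgn and Aspn form SLRP class I. Decorin, which carries 1 glycosaminoglycan chain and holds TGFβ in the matrix, was at 203 and 172 CPM with CCM and at 114 and 92.5 CPM with TCM, where vehicle gave 148 and 195 CPM and LA 125 and 155 CPM (replicates 1 and 2 in this order throughout). Both TCM libraries were below the 6 others. Dcn fell by 0.86 on the log2 scale with TCM (SE 0.161, edgeR adjusted P = 0.00342), a 1.81-fold lower level, and without TCM replicate 2 the log2 FC was −0.72 with an adjusted P of 0.0508. Biglycan, the closest relative of decorin and a ligand of Toll-like receptors when soluble, behaved otherwise. It measured 60.2 and 52.2 CPM with CCM, 45.2 and 48.8 CPM with TCM, 34.1 and 45.1 CPM with vehicle and 41.7 and 50.1 CPM with LA. The TCM libraries were just below the CCM libraries, and the difference did not pass the test (log2 FC −0.26, SE 0.146, edgeR adjusted P = 0.238).

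Asporin, a class I SLRP that binds collagen and TGFβ but carries no glycosaminoglycan chain, showed the largest fold of the 10 genes between TCM and CCM. It was at 13.3 and 10.02 CPM with CCM, 2.21 and 2.18 CPM with TCM, 4.35 and 7.95 CPM with vehicle and 4.02 and 11.98 CPM with LA. The TCM libraries were nearly equal and held 21 and 20 counts, the fewest of all libraries, whereas LA replicate 2 was 2.98-fold above LA replicate 1. The log2 FC with TCM was −2.41 (SE 0.479, edgeR adjusted P = 0.00482), 5.31-fold lower than with CCM. With only 1 TCM library the size stayed while the call was lost, at −2.42 (adjusted P = 0.143) without TCM replicate 1 and −2.40 (adjusted P = 0.127) without TCM replicate 2. Cenpp lies across Aspn, Omd and Ogn on the other strand and shares 7 exonic bases with Aspn, 0.297% of its exons, and none with Omd or Ogn. Cenpp itself was at 88 and 87 counts with CCM and 36 and 21 with TCM (log2 FC −1.36, SE 0.241, edgeR adjusted P = 0.00248). Whether counting used strand is not given in the sources used here, so reads of both genes over the shared bases cannot be told apart.

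Lum, Fmod, Prelp and Omd form SLRP class II, whose members can carry keratan sulfate. Lumican, which regulates fibril diameter, was at 12.5 and 9.16 CPM with CCM, 3.47 and 2.83 CPM with TCM, 5.69 and 4.34 CPM with vehicle and 4.14 and 9.79 CPM with LA. The TCM libraries were the lowest and the CCM libraries among the highest, with LA replicate 2 between the CCM replicates. Lum fell by 1.78 on the log2 scale (SE 0.363, edgeR adjusted P = 0.00554), 3.43-fold, and by 1.64 with an adjusted P of 0.0558 when TCM replicate 2 was left out. Omd, named for its place in mineralized tissue, was close to the detection limit at 7 to 26 counts per library. Its levels were 1.60 and 1.62 CPM with CCM, 2.00 and 0.76 CPM with TCM, 1.56 and 2.40 CPM with vehicle and 1.18 and 1.06 CPM with LA. The TCM replicates enclosed the CCM values, and no difference was detectable at this depth (log2 FC −0.21, SE 0.437, edgeR adjusted P = 0.774).

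Fibromodulin and PRELP were the class II genes of high level, and neither passed the test for TCM against CCM. Fmod, which binds the collagen cross-linking enzyme lysyl oxidase, was at 449 and 409.9 CPM with CCM and at 349 and 385 CPM with TCM, where vehicle gave 535 and 509 CPM and LA 383.5 and 346 CPM. The vehicle libraries were the highest, and the LA and TCM libraries overlapped (log2 FC of TCM against CCM −0.23, SE 0.104, edgeR adjusted P = 0.149). Prelp, whose basic amino terminus binds heparan sulfate and which links basement membrane to the underlying collagen, was at 141 and 132 CPM with CCM, 98.4 and 124 CPM with TCM, 179.9 and 222 CPM with vehicle and 144 and 159 CPM with LA. Vehicle was again highest, and the TCM libraries were lowest. The difference of TCM from CCM was −0.30 (SE 0.134, edgeR adjusted P = 0.144). It passed the test without TCM replicate 2 (−0.47, adjusted P = 0.0137) and without TMM factors (−0.43, adjusted P = 0.0301), a scaling that moved the median of all genes by −0.14 in this comparison. The antisense gene Gm15851 covers 350 bases of the Prelp exons and had at most 1 count in a library.

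Ogn, of SLRP class III, was the gene of highest level per kb and the only SLRP of the list that rose with TCM. Osteoglycin, also called mimecan, takes part in collagen fibrillogenesis. It measured 363 and 353.5 CPM with CCM, 543 and 573 CPM with TCM, 363 and 379 CPM with vehicle and 357 and 395 CPM with LA. Replicates differed little, and both TCM libraries were above the 6 others, which lay between 353.5 and 395 CPM. The log2 FC of TCM against CCM was 0.64 (SE 0.0969, edgeR adjusted P = 0.000899), a level 1.56-fold higher, and it passed the test under all 16 alternatives run for this value, with a range of 0.50 to 0.68.

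Vcan and Hspg2 encode the large proteoglycans and changed in opposite directions. Versican was at 136 and 124 CPM with CCM, 42.3 and 70.4 CPM with TCM, 97.7 and 110.5 CPM with vehicle and 108 and 166 CPM with LA. Both TCM libraries were the lowest of the 8. Vcan fell by 1.21 on the log2 scale (SE 0.227, edgeR adjusted P = 0.00345), 2.31-fold, and by 0.89 with an adjusted P of 0.0849 when TCM replicate 1 was left out. Perlecan was at 686 and 565 CPM with CCM, 875 and 1475 CPM with TCM, 905 and 932 CPM with vehicle and 800.4 and 991 CPM with LA. The CCM libraries were the lowest, and TCM replicate 1 lay within the range of vehicle and LA while TCM replicate 2 lay above all others. Hspg2 rose with TCM relative to CCM by 0.91 on the log2 scale (SE 0.207, edgeR adjusted P = 0.00995), 1.88-fold. The size depended on the library, with 0.48 (adjusted P = 0.0216) without TCM replicate 2, and the call was lost without CCM replicate 2 (0.78, adjusted P = 0.0905). Hspg2 and Vcan have 14307 and 14462 bases of exon and both were higher in TCM replicate 2, in the direction of the length difference between the TCM libraries, whose part was not tested.

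**Figure D3:**
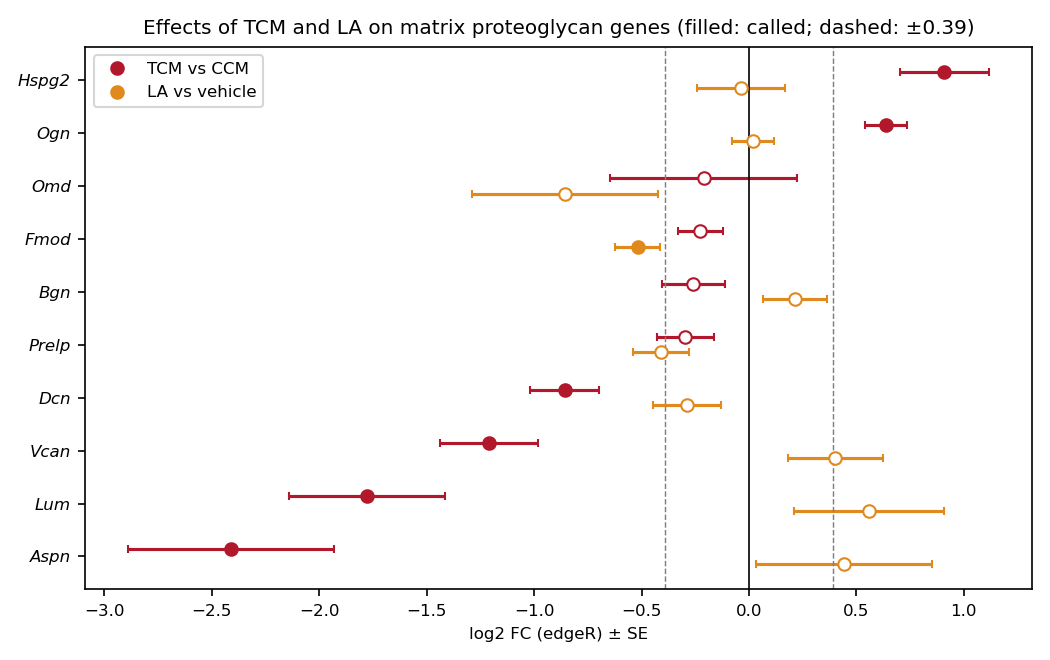
Points are log2 FC (horizontal axis) with SE bars, for TCM against CCM in red and LA against vehicle in orange. Filled points passed the test, and dashed lines mark a log2 FC of 0.39 in both directions. With TCM 2 genes are filled to the right and 4 to the left, and with LA only Fmod is filled, at −0.52.

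LA alone changed 1 of the 10 genes. Fmod fell from 522 ± 18.5 CPM with vehicle to 365 ± 26.7 CPM with LA (SD, n = 2), and neither LA library overlapped the vehicle libraries. Its log2 FC was −0.52 (SE 0.104, edgeR adjusted P = 0.0278), 1.43-fold lower. Of all genes tested 2.55% were called in this comparison, 1.24% lower. CPM ranges did not overlap for 3 of the 10 genes against 48% of all genes, and the median log2 FC was −0.01 for the 10 genes and 0.00 for all genes. DESeq2 also called 1. The Fmod call was lost without vehicle replicate 1 (−0.48, adjusted P = 0.200), vehicle replicate 2 (−0.55, 0.152), CCM replicate 1 (−0.52, 0.0609), CCM replicate 2 (−0.52, 0.0616), LA replicate 1 (−0.59, 0.0994) or LA replicate 2 (−0.45, 0.205), with the size between −0.59 and −0.45 in all 16 alternatives run.

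The other genes had these log2 FC of LA against vehicle. Class I gave −0.29 for Dcn (SE 0.159, edgeR adjusted P = 0.471), 0.21 for Bgn (SE 0.149, 0.597) and 0.44 for Aspn (SE 0.409, 0.722). Class II gave −0.41 for Prelp (SE 0.132, 0.156), 0.56 for Lum (SE 0.347, 0.542) and −0.86 for Omd (SE 0.431, 0.407). Ogn was at 0.02 (SE 0.0968, edgeR adjusted P = 0.963), Hspg2 at −0.04 (SE 0.205, 0.969) and Vcan at 0.40 (SE 0.219, 0.462). Prelp passed without TCM replicate 1 (−0.41, adjusted P = 0.0263) or TCM replicate 2 (−0.41, 0.0261). The LA replicates were far apart for Aspn (2.98-fold) and Lum (2.37-fold). Replicate 2 was the higher of the pair for 8 of the 10 genes in LA and likewise for 8 in vehicle, but for 1 in CCM and 6 in TCM, where 48.5% to 49.7% of all genes tested were higher in replicate 2. Without LA replicate 2 the sign turned for Aspn (−0.64) and Lum (−0.27).

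For 4 of the 10 genes the effect of TCM over CCM differed from that of LA over vehicle by a test of the difference itself, against 10.4% of all genes tested (4.45% higher and 6% lower). This difference of log2 FC was −2.85 for Aspn (SE 0.637, edgeR adjusted P = 0.0158), −2.34 for Lum (SE 0.504, 0.0132), −1.61 for Vcan (SE 0.315, 0.0077) and 0.62 for Ogn (SE 0.137, 0.0149). DESeq2 called 5. Hspg2 was just outside the threshold at 0.95 (SE 0.291, edgeR adjusted P = 0.0642), with a range of 0.52 to 1.27 over 15 alternatives. The highest of these values came without TCM replicate 1. Dcn (−0.57, edgeR adjusted P = 0.145), Bgn (−0.47, 0.191), Fmod (0.29, 0.254), Prelp (0.11, 0.771) and Omd (0.65, 0.576) did not pass.

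These calls rested on many single libraries. Vcan lost its call without TCM replicate 1 (−1.29, edgeR adjusted P = 0.0803). Aspn lost it without vehicle replicate 1 (−2.50, adjusted P = 0.0575), CCM replicate 1 (−2.62, 0.057), LA replicate 2 (−1.77, 0.0874), TCM replicate 1 (−2.87, 0.193) or TCM replicate 2 (−2.85, 0.154). Lum lost it without vehicle replicate 2 (−2.14, 0.0618), CCM replicate 1 (−2.08, 0.0558), LA replicate 2 (−1.51, 0.0739), TCM replicate 1 (−2.50, 0.0558) or TCM replicate 2 (−2.21, 0.0559). For Ogn it was lost without vehicle replicate 1 (0.65, 0.0527), vehicle replicate 2 (0.60, 0.0725), CCM replicate 1 (0.64, 0.0796), CCM replicate 2 (0.60, 0.0904) or LA replicate 1 (0.55, 0.0705). The direction was kept in each of these fits.

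The controls themselves, CCM and vehicle, were set against each other because they feed all other comparisons. No gene of the 10 passed (0 calls by edgeR, where 1.3% of all genes were called), although 6 had an unadjusted P under 0.05 and DESeq2 called 1, Prelp (−0.57, adjusted P = 0.0135). The CPM ranges of CCM and vehicle did not overlap for 8 of the 10 genes against 49.8% of all genes. The log2 FC of CCM over vehicle was 1.12 for Lum (SE 0.333, edgeR adjusted P = 0.139), 0.90 for Aspn (SE 0.397, 0.367), 0.50 for Bgn (SE 0.147, 0.136), −0.55 for Hspg2 (SE 0.206, 0.261) and −0.56 for Prelp (SE 0.132, 0.067). Fitted with only the CCM and vehicle libraries, 5 of the 10 genes passed at similar sizes. They were Lum (1.12, edgeR adjusted P = 0.00102), Aspn (0.89, 0.031), Bgn (0.49, 0.0158), Hspg2 (−0.56, 0.000301) and Prelp (−0.56, 0.000427). Without TCM replicate 1 or TCM replicate 2 in the shared estimate of spread, Prelp (adjusted P = 0.00668 and 0.00657) and Hspg2 (0.0186 and 0.0185) passed at unchanged size.

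The calls for TCM changed with the control it was set against. Against vehicle, TCM gave 5 calls of 10 (17.5% of all genes, 8.58% higher and 8.9% lower), with Ogn higher by 0.59 (SE 0.0969, edgeR adjusted P = 0.00177) and Prelp (−0.85, SE 0.134, 0.00136), Dcn (−0.73, SE 0.161, 0.00915), Fmod (−0.51, SE 0.104, 0.00637) and Vcan (−0.89, SE 0.228, 0.0194) lower. Ogn, Dcn and Vcan thus passed against either control, while Fmod and Prelp passed against vehicle alone. Lum (−0.65, SE 0.408, edgeR adjusted P = 0.300), Aspn (−1.50, SE 0.525, 0.0693) and Hspg2 (0.36, SE 0.206, 0.261), called against CCM, did not pass against vehicle. These comparisons share the TCM libraries, so they are not independent. Dcn lost its call against vehicle without vehicle replicate 2 (−0.52, adjusted P = 0.102) or TCM replicate 2 (−0.59, 0.0896), Fmod without vehicle replicate 1 (−0.47, 0.0596) and Vcan without vehicle replicate 1 (−0.97, 0.0590), vehicle replicate 2 (−0.80, 0.125) or TCM replicate 1 (−0.57, 0.241). DESeq2 did not call Vcan here (−0.88, adjusted P = 0.0581) and did call Aspn (−1.49, adjusted P = 0.00913). Aspn gained a call without LA replicate 1 (−1.50) or LA replicate 2 (−1.50). Hspg2 gained a call without TCM replicate 1 (0.68), whereas without TCM replicate 2 its log2 FC was −0.069.

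TCM was also set against LA, which was given in unconditioned RPMI, so this comparison includes any effect of conditioning. It gave 5 calls (16.1% of all genes, 8.34% higher and 7.77% lower), namely Ogn (0.57, SE 0.0968, edgeR adjusted P = 0.00229) higher and Vcan (−1.29, SE 0.227, 0.00282), Aspn (−1.95, SE 0.496, 0.0207), Prelp (−0.44, SE 0.134, 0.0423) and Lum (−1.21, SE 0.378, 0.0479) lower. Fmod, the gene that fell with LA, was at the same level with TCM (log2 FC 0.01, SE 0.104, edgeR adjusted P = 0.960). LA replicate 2 decided much of the size, since without it Aspn was at −0.87 (adjusted P = 0.297) and Lum at −0.39 (0.576). Aspn was also lost without TCM replicate 1 (−1.97, 0.268) or TCM replicate 2 (−1.95, 0.201), and Vcan without TCM replicate 1 (−0.97, 0.0845). Lum and Prelp, near the threshold, lost their calls without most single libraries (Lum at adjusted P = 0.0545 to 0.576 and Prelp at 0.0664 to 0.229 where lost), among them Prelp without TCM replicate 1 at −0.28. Between LA and CCM edgeR called 0 of the 10 genes (0.626% of all genes), where 3 had an unadjusted P under 0.05 and DESeq2 also called 0. Hspg2 passed there without TCM replicate 1 (0.52, adjusted P = 0.0387) or TCM replicate 2 (0.52, 0.0379).

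Ratios of counts within a library need no scaling between libraries. The pairs join members whose unequal changes with TCM are given above. Their ratios use the same counts, so they restate those changes and are no separate support. Of the 5 ratios computed, 4 put both TCM libraries outside the range of the 6 others. Ogn reads outnumbered Aspn reads by 246-fold and 263-fold with TCM, by 27.3-fold and 35.3-fold with CCM, by 83.5-fold and 47.7-fold with vehicle and by 88.9-fold and 33.0-fold with LA. The Hspg2 to Vcan ratio was 20.7 and 21.0 with TCM, 5.04 and 4.54 with CCM, 9.26 and 8.43 with vehicle and 7.39 and 5.97 with LA. Here the TCM replicates, which differed 1.69-fold in Hspg2 alone, were nearly equal. For Dcn to Bgn, the closest relatives of the list, the order was vehicle (4.33 and 4.33), CCM (3.37 and 3.29), LA (3.01 and 3.10) and TCM (2.52 and 1.90), with no overlap between conditions. The Ogn to Fmod ratio was 1.55 and 1.49 with TCM, 0.931 and 1.14 with LA, 0.809 and 0.862 with CCM and 0.679 and 0.744 with vehicle. The Dcn to Lum ratio did not set TCM apart, with 32.8 and 32.7 against 26.0 and 45.0 with vehicle, 30.3 and 15.9 with LA and 16.3 and 18.7 with CCM. As ratios of unlike genes they show unequal change and not which gene moved.

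**Figure D4:**
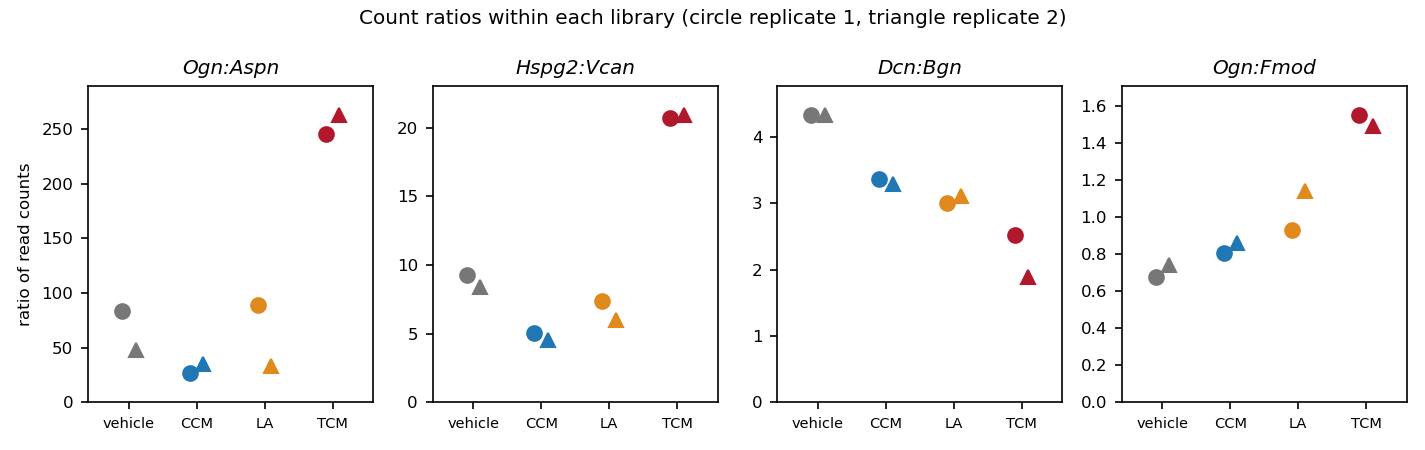
Each panel plots a ratio of read counts in the same library (vertical axis, from 0) by condition, with replicate 1 as a circle and replicate 2 as a triangle. Ogn:Aspn and Hspg2:Vcan in the TCM libraries lie far above all others, at 246 and 263 and at 20.7 and 21.0.

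In the chromosome 13 cluster neighbouring genes went different ways. Ecm2 fell with TCM from 3.96 and 2.67 CPM to 0.947 and 0.654 CPM (log2 FC −2.04, SE 0.374, edgeR adjusted P = 0.00298). Aspn fell as well (−2.41), Omd gave no call (−0.21) and Ogn rose (0.64). In the chromosome 10 cluster the 3 tested genes all fell, Dcn (−0.86), Lum (−1.78) and Epyc (−1.31, SE 0.296, edgeR adjusted P = 0.00962), which was not called without CCM replicate 1 (−1.15, 0.0849), while Kera had at most 3 counts. In the chromosome 1 cluster Optc (0.66, SE 0.430, edgeR adjusted P = 0.309), Prelp (−0.30) and Fmod (−0.23) gave no call.

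The genes of most similar pattern were ranked by Pearson r of log2 CPM over the 8 libraries of 4 conditions, which share depth and scaling. For Ogn, the gene of highest level and smallest adjusted P with TCM, they were Klhl7 (r = 0.990), B2m (r = 0.989) and Chpt1 (r = 0.989). B2m, the light chain of MHC class I, was at 699 and 685 CPM with TCM and between 435 and 467 CPM elsewhere. For Fmod, the gene of smallest adjusted P with LA, they were Gm2115 (r = 0.981), Rhbdf2 (r = 0.973) and Ada (r = 0.956). Ada, adenosine deaminase, was at 52.7 and 40.7 CPM with vehicle, 22.1 and 22.6 CPM with CCM, 18.0 and 11.9 CPM with LA and 15.6 and 13.6 CPM with TCM. No member was as close, the nearest being Hspg2 for Ogn (r = 0.696, rank 1889) and Prelp for Fmod (r = 0.726, rank 589).

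The genes that build, bind and cleave proteoglycans were counted in 10 lists of 125 symbols, of which 124 were in the table and 84 were tested. With TCM 33 of the 84 passed (19 higher and 14 lower, 39.3% against 19.1% of all genes), with a median log2 FC of 0.06 against 0.00. Without TMM factors the calls were 11 higher and 17 lower. DESeq2 called 27, and leaving out CCM replicate 2 left 19. With LA 3 of the 84 passed (3.57% against 2.55%), a count that became 7 without TCM replicate 1 or TCM replicate 2. In CCM against vehicle edgeR called 0 of the 84, where 11 had an unadjusted P under 0.05 and DESeq2 called 1.

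**Figure D5:**
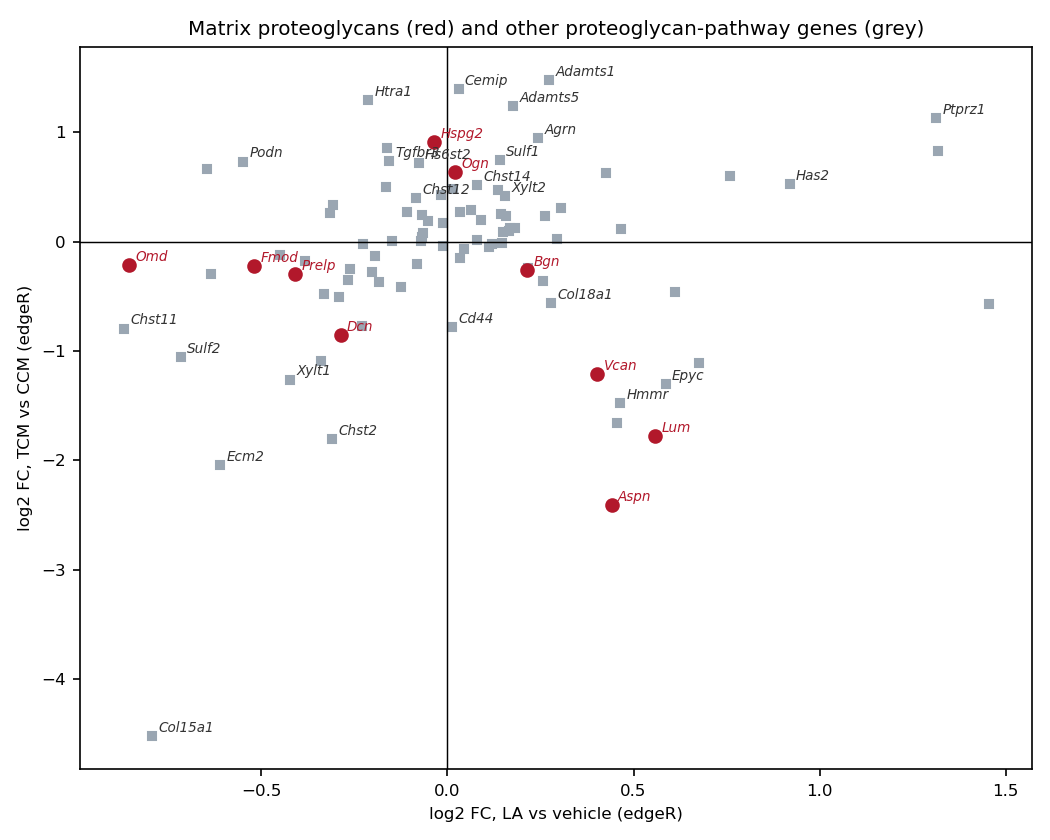
Each point is 1 gene, with its log2 FC for LA against vehicle on the horizontal axis and for TCM against CCM on the vertical axis, in red circles for the 10 matrix proteoglycans and grey squares for the 84 other genes. Aspn, Lum and Vcan lie low on the right (log2 FC with TCM of −2.41, −1.78 and −1.21), Adamts1 (1.48) and Cemip (1.39) near the top, and Ptprz1 and Has2 to the right with both treatments.

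Proteoglycan-cleaving proteases gave 5 calls of 8 tested with TCM (62.5% against 19.1% of all genes), 4 higher and 1 lower. Adamts1, an ADAMTS protease that cleaves versican, was at 2352 and 2261 CPM with CCM, 6019 and 6846 CPM with TCM, 3007 and 2471 CPM with vehicle and 3714 and 2910.03 CPM with LA. Both TCM libraries were far above the others (log2 FC 1.48, SE 0.148, edgeR adjusted P = 6.76e-05). Adamts5, a related aggrecanase and versicanase, went from 415 ± 21.9 CPM with CCM to 979 ± 120.4 CPM with TCM (SD, n = 2, log2 FC 1.24, SE 0.110, edgeR adjusted P = 3.6e-05), and Htra1, a secreted serine protease that degrades SLRPs, from 122 ± 2.00 to 299.9 ± 14.7 CPM (1.30, SE 0.0943, 1.74e-05). Outside the naming rule and chosen after their values were seen, Adamts9 rose (0.63, SE 0.147, edgeR adjusted P = 0.0117) and Bmp1, the procollagen C-proteinase that also trims SLRP propeptides, fell (−0.77, SE 0.0913, 0.00019). Versican RNA was lowest in the TCM libraries, where Adamts1 RNA was highest. Between the TCM replicates both were higher in replicate 2, at 70.4 CPM for Vcan and 6846 CPM for Adamts1. A link between them was not tested, and protein and cleavage were not measured.

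Hyaluronan genes gave 3 calls of 8 with TCM (37.5% against 19.1% of all genes), 2 higher and 1 lower. Cemip, which breaks down hyaluronan, was at 2265 and 2238 CPM with CCM, 5057 and 6780 CPM with TCM, 3244 and 3299.7 CPM with vehicle and 3472 and 3209.6 CPM with LA (log2 FC of TCM against CCM 1.39, SE 0.139, edgeR adjusted P = 6.76e-05). Has2, a hyaluronan synthase, was at 33.7 and 34.2 CPM with CCM, 47.05 and 50.5 CPM with TCM, 26.2 and 25.8 CPM with vehicle and 49.3 and 49.1 CPM with LA. It rose with TCM (0.52, SE 0.09996, edgeR adjusted P = 0.00383) and with LA (0.92, SE 0.102, 0.00112), reaching means of 48.8 and 49.2 CPM. Without TMM factors Has2 was at 0.38 with TCM, under the fold threshold. Hmmr, a hyaluronan receptor that is also a mitotic spindle protein, fell with TCM (−1.48, SE 0.138, edgeR adjusted P = 4.59e-05).

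Cell-surface proteoglycans gave 8 calls of 12 with TCM (66.7% against 19.1% of all genes), 6 higher and 2 lower. With LA they gave 1 call of 12 (8.33% against 2.55% of all genes). Ptprz1, a receptor phosphatase with chondroitin sulfate chains, rose with both, from 70.2 ± 2.46 CPM with CCM to 154 ± 20.5 CPM with TCM (log2 FC 1.13, SE 0.132, edgeR adjusted P = 0.000183) and from 62.4 ± 10.5 CPM with vehicle to 155 ± 12.5 CPM with LA (1.31, SE 0.134, 0.000734; SD, n = 2). Tgfbr3, the TGFβ co-receptor betaglycan, rose with TCM (0.74, SE 0.130, edgeR adjusted P = 0.00236), and Cd44, the main hyaluronan receptor, fell (−0.78, SE 0.126, 0.00138).

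Among the other SLRPs 3 of 7 passed with TCM, Ecm2 and Epyc lower and Podn higher (0.73, SE 0.141, edgeR adjusted P = 0.00407), which was not called without CCM replicate 2 (0.59, 0.0549). Of the other matrix proteoglycans 3 of 4 passed. The shares called were 42.9% of the other SLRPs and 75% of the other matrix proteoglycans, against 19.1% of all genes. Col15a1, a basement membrane collagen with chondroitin sulfate chains, was at 38.2 and 26.2 CPM with CCM and 1.47 and 1.31 CPM with TCM (−4.52, SE 0.529, edgeR adjusted P = 0.000182), and its call was lost without TCM replicate 1 (−4.62, 0.0873) or TCM replicate 2 (−4.44, 0.0751). Col18a1, its heparan sulfate counterpart, fell by 0.56 (SE 0.102, edgeR adjusted P = 0.00294). Agrn, the basement membrane heparan sulfate proteoglycan agrin, rose by 0.95 (SE 0.190, edgeR adjusted P = 0.00497), and by 0.53 without TCM replicate 2, so that perlecan and agrin rose while both collagens fell.

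Genes of chain synthesis were called in both directions, except for the keratan sulfate genes with their single call. Shares called with TCM were 28.6% (linkage region), 30.8% (chondroitin and dermatan sulfate), 26.7% (heparan sulfate) and 25% (keratan sulfate). Of all genes 19.1% were called, and the difference of these shares from it was not tested. Of the linkage region 2 of 7 passed, the xylosyltransferases that start chondroitin, dermatan and heparan sulfate chains, with Xylt1 lower (−1.26, SE 0.306, edgeR adjusted P = 0.0134) and Xylt2 higher (0.42, SE 0.105, 0.0161). Of the chondroitin and dermatan sulfate genes 4 of 13 passed, the sulfotransferases Chst14 (0.52, SE 0.0980, edgeR adjusted P = 0.00349) and Chst12 (0.40, SE 0.112, 0.0263) higher and Chst11 (−0.79, SE 0.240, 0.0370) lower, with Chst3, named after its values were seen, at 1.20 CPM with CCM and 0.372 CPM with TCM. The TCM value of Chst3 lay close to the floor of 3 counts, which was 0.316 and 0.327 CPM in the TCM libraries. Of the heparan sulfate genes 4 of 15 passed, namely Hs6st2 (0.72, SE 0.101, edgeR adjusted P = 0.00056) and Sulf1 (0.74, SE 0.152, 0.00564) higher and Sulf2 (−1.06, SE 0.154, 0.000705) and, named after its values were seen, Ndst3 (−1.11, SE 0.288, 0.0190) lower. Sulf1 and Sulf2 both encode extracellular sulfatases of heparan sulfate. Sulf2 also fell with LA (−0.72, SE 0.148, edgeR adjusted P = 0.0308), from 89.5 and 116 CPM with vehicle to 54.3 and 70.03 CPM with LA. Of the keratan sulfate genes 1 of 4 passed, the sulfotransferase Chst2, which was at 36.9 and 36.3 CPM with CCM and 10.1 and 10.8 CPM with TCM (−1.81, SE 0.121, edgeR adjusted P = 1.09e-05). Of 6 tested genes of sulfate supply edgeR called 0 with TCM, where 1 had an unadjusted P under 0.05 and DESeq2 called 0.

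Several of these calls rested on single libraries. Without CCM replicate 2 the calls of Sulf1 (0.63, edgeR adjusted P = 0.0636), Chst14 (0.47, 0.056) and Xylt1 (−1.13, 0.0888) were lost, and Xylt1 was also lost without TCM replicate 1 (−1.07, 0.0667). Xylt2 was not called without CCM replicate 1 (0.45, 0.0913) or CCM replicate 2 (0.39, 0.127), and Chst12 without CCM replicate 1 (0.45, 0.103), CCM replicate 2 (0.35, 0.183) or TCM replicate 1 (0.37, 0.0433). Chst11 lost its call without either vehicle, either CCM or the first TCM replicate, at adjusted P values of 0.0560 to 0.204. DESeq2 did not call Xylt1 (adjusted P = 0.0504), Chst12 (0.0551) or Chst11 (0.0927). With LA, Sulf2 was not called without vehicle replicate 2 (−0.52, 0.287), CCM replicate 1 (−0.72, 0.0524), CCM replicate 2 (−0.72, 0.0523), LA replicate 1 (−0.55, 0.205) or LA replicate 2 (−0.92, 0.0562). In the annotation another gene's span overlaps Ecm2, Podn, Epyc, Col15a1, Col18a1, Cd44, Tgfbr3, Has2, Xylt1, Chst11, Hs6st2, Sulf2 and Htra1. The same holds for Adamts9, Chst3, Ndst3 and Optc. Whether exons are shared was not computed for these genes, and their counts are uncertain to that extent.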

How the data were processed

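RNA was measured in 8 libraries of 1 FRC line, 2 for each of vehicle, CCM, LA and TCM. The study calls them biological replicates, but nothing says that they were separate cultures, so P values measure only the spread between these libraries. Per the labels and the study's methods, RNA was isolated with RNeasy, poly(A)-selected, stranded libraries were made with NEBNext Ultra II Directional and sequenced on a NextSeq500, and reads were aligned with STAR 2.7.0a to GRCm38 (Ensembl 100) and counted with featureCounts (Subread 2.0.1). The strand setting is not given in the sources used here. The authors deposited raw read counts per gene. A second deposited table, named as normalized, held the same counts for 12137 genes (100% of values equal), and authors' fold changes and P values were not used.

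The 12137 of 55367 genes that reached 10 counts in 3 or more libraries were tested with edgeR 4.0.16 (R 4.3.3), with TMM factors (0.938 to 1.04), a robust quasi-likelihood fit of all 8 libraries with 1 mean per condition, and Benjamini-Hochberg adjustment over all genes tested. A call needed an adjusted P under 0.05 and a log2 FC beyond 0.39, and the SE was the log2 FC over the root of F. The common biological coefficient of variation was 0.0903. An exact permutation test of 2 against 2 libraries cannot go below P = 0.333 and was not used. Totals were 8232889 to 14107964 counts. The floor of 3 counts covers counting error only, whereas the SE includes the spread between libraries. In data simulated on TCM against CCM with 12015 genes, 88% of genes changed by a log2 FC of 1 were recovered. Of those changed by 2, 98% were recovered, and 3.63% of calls were false. The simulation gave all genes the same spread in every condition, without the wider gap between the TCM libraries. These rates therefore hold for that setting and not for the libraries measured.

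Members and gene lists were chosen with earlier results of these data known. Named genes were all members and, of each pathway list, up to 3 called genes of smallest adjusted P in TCM against CCM and up to 3 in LA against vehicle. Genes of similar pattern were the 3 of highest Pearson r with the member of highest level per kb and with those of smallest adjusted P in the same comparisons. The lists were other SLRPs, other matrix proteoglycans, cell-surface proteoglycans, hyaluronan, linkage region, chondroitin and dermatan sulfate, heparan sulfate, keratan sulfate, sulfate supply and cleavage, and markers of FRCs, leukocytes, endothelium, epithelium, melanoma and cartilage, bone and tendon. Levels per kb used the union of GENCODE M21 exons. Alternatives were DESeq2 1.42.0, its size factors, no TMM factors, other filters and fold thresholds, only the libraries compared, a replicate block and leaving out each library in turn.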

Additional observations from a re-analysis of the deposited data

Results flagged for a closer look

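A test of the difference itself separated the effect of TCM over CCM from that of LA over vehicle for 17 named genes, namely 4 of the 10 matrix proteoglycans and 13 of the 24 named genes of the pathway lists. Over all genes tested 10.4% were called. The 24 were named for their small adjusted P, all of them in TCM against CCM, which favours such a difference, so their count is a description. The values are differences of log2 FC, with a negative value where the gene was lower with TCM relative to its control than with LA relative to its own. Among the matrix proteoglycans they were −2.34 for Lum, −2.85 for Aspn, −1.61 for Vcan and 0.62 for Ogn (edgeR adjusted P = 0.0132, 0.0158, 0.0077 and 0.0149).

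Among the other genes, the SLRPs Podn and Epyc gave 1.28 (edgeR adjusted P = 0.00241) and −1.89 (0.0108), the collagens Col15a1 and Col18a1 −3.73 (0.00506) and −0.84 (0.00356), and the surface molecules Cd44 and Tgfbr3 −0.79 (0.0154) and 0.90 (0.0122). Hyaluronan genes gave −1.94 for Hmmr (edgeR adjusted P = 0.000103) and 1.36 for Cemip (0.0011), and the sulfotransferases Hs6st2 and Chst2 gave 0.79 (0.0046) and −1.50 (0.000188). The proteases were at 1.51 for Htra1 (edgeR adjusted P = 6.79e-05), 1.06 for Adamts5 (0.00124) and 1.21 for Adamts1 (0.00339), so that all 3 were higher with TCM.

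Several of these calls were lost without 1 library. Epyc was lost without CCM replicate 1 (−1.73, edgeR adjusted P = 0.0584) and Col15a1 without TCM replicate 1 (−3.84, 0.228) or TCM replicate 2 (−3.67, 0.185). Cd44 was lost without vehicle replicate 1 (−0.64, 0.0726), CCM replicate 1 (−0.80, 0.0577), CCM replicate 2 (−0.78, 0.0596) or LA replicate 2 (−0.64, 0.0739). Tgfbr3 was lost without vehicle replicate 1 (0.88, 0.0502), CCM replicate 1 (0.85, 0.0727) or LA replicate 2 (0.84, 0.0614). The same holds for Lum, Aspn, Vcan and Ogn as given above.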

How the results depend on the processing

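Of the values computed under alternatives for the 10 genes, 976 kept direction and side of the threshold, 54 lost a call, 48 gained one and 25 changed sign, and for the other proteoglycan genes 582 were kept and 44 lost a call. The number of the 10 genes called for TCM against CCM was 6, and 3 at a log2 FC beyond 1 (4 to 6 when a library was left out). For LA against vehicle it was 1, with 2 without the filter on low counts and 0 beyond 0.68 or 1 (0 to 2 when a library was left out). The difference of effects gave 4 (1 to 3). CCM against vehicle gave 0, with 4 without the filter, 5 with only the libraries compared and 1 by DESeq2 (0 to 2). TCM against vehicle gave 5, with 3 beyond 0.68 and 0 beyond 1 (3 to 6). LA against CCM gave 0, with 1 without the filter and 1 with only the libraries compared (0 to 1). TCM against LA gave 5, with 3 with only the libraries compared, 3 beyond 0.68 and 3 beyond 1 (2 to 4). Of the other proteoglycan genes 33 were called for TCM against CCM, with 14 beyond 1 (19 to 33), and 3 for LA against vehicle, with 8 without the filter and 1 beyond 1 (2 to 7). The causes were not tested, other than that a higher threshold can only remove calls. A library left out leaves 1 in its condition, which is then assumed to vary like the others.

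The labels do not say what a replicate number marks. Deviations from the condition means of same-numbered libraries correlated positively among vehicle, LA and TCM (vehicle and LA 0.353, vehicle and TCM 0.112, LA and TCM 0.106) and negatively with CCM (−0.0406 for vehicle, −0.0813 for LA, −0.242 for TCM), so the numbers as given were not used as pairs across the 4 conditions. With the replicate number as a block the calls among the 10 genes were 6 for TCM against CCM, 1 for LA against vehicle, 5 for the difference, 1 for CCM against vehicle, 6 for TCM against vehicle, 0 for LA against CCM and 5 for TCM against LA. With the CCM numbers crossed, an alternative chosen after seeing the data, the block gave 6, 2, 6, 3, 6, 0 and 6 calls in that order, and 35 and 8 for the other genes with TCM and LA.

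No value that changed sign had passed the test. Without TMM factors these were Bgn (−0.087) and Fmod (−0.11) in TCM against LA and Prelp in the difference (−0.032), and without the filter Fmod in TCM against LA (−0.0075). The others changed sign with a library left out. For LA against vehicle the lowest and highest values so obtained were −0.27 (without LA replicate 2) and 0.98 for Lum, −0.64 (without LA replicate 2) and 0.96 for Aspn, −0.20 and 0.11 (without LA replicate 1) for Hspg2, and −0.055 (without LA replicate 2) and 0.091 for Ogn, which was also −0.0096 without vehicle replicate 1. For LA against CCM they were −0.0050 (without LA replicate 2) and 0.14 for Ogn, −0.27 (without LA replicate 2) and 0.35 for Vcan, and −1.54 and 0.033 (without LA replicate 1) for Aspn. For TCM against LA they were −0.092 (without LA replicate 1) and 0.17 for Bgn, also −0.035 without TCM replicate 2, −0.063 (without LA replicate 2) and 0.087 for Fmod, also −0.060 without TCM replicate 2, −0.034 (without TCM replicate 2) and 0.72 for Hspg2, and −0.53 (without TCM replicate 1) and 0.85 for Omd. They were −0.069 (without TCM replicate 2) and 0.68 for Hspg2 in TCM against vehicle, and −1.07 and 0.31 (without TCM replicate 2) for Omd in TCM against CCM. For CCM against vehicle they were −0.061 (without vehicle replicate 1) and 0.33 for Dcn and −0.57 and 0.036 (without vehicle replicate 2) for Omd. In the difference they were −0.066 (without TCM replicate 2) and 0.27 for Prelp, also −0.038 without vehicle replicate 2, and −0.21 (without TCM replicate 1) and 1.17 for Omd.

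Limits are the 2 libraries per condition, the single line, the strand setting that is not given in the sources used here, and the depth, which left Omd at 7 to 26 counts and Aspn and Lum at 20 to 170 counts per library. Among the other genes Chst3 was near the floor with TCM, and Ecm2 was also low there. RNA levels do not give protein, chain length or sulfation.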
